A study of Mus musculus with 8 samples.

Results

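Undifferentiated mouse embryonic stem cells (ESCs) with a Zfp462 knockout were compared with control ESCs across all genes. The libraries were chosen by their labels, which gave 4 ESC libraries of 8 in the series, 2 knockout and 2 control. All came from R1 cells, an established mouse ESC line, grown on gelatin in serum with LIF (leukaemia inhibitory factor), which keeps ESCs undifferentiated. The controls are labelled wild type, the knockout cells are described as stable lines, and no group received any other treatment. The other 4 libraries of the series are knockout and control embryoid bodies (EBs), floating aggregates in which the same cells differentiated for 3 days in Petri dishes, and they are used here only for the shared estimate of spread and for the test of where ESCs differ. The sources used here do not give the edited exon, the method of knockout, or whether the 2 knockout libraries came from 1 clone or several, or from separate cultures. The p-values therefore reflect the spread between these particular samples alone, and that spread may be technical.

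Zfp462 encodes a large nuclear zinc finger protein. It is known to bind the H3K9 methyltransferases EHMT1 and EHMT2 and to help keep genes of other lineages silent in stem cells. ESCs in serum and LIF correspond to the epiblast of the blastocyst, and its neighbour, the primitive endoderm, is specified by GATA6, GATA4 and SOX17 and goes on to form the parietal and visceral endoderm of the yolk sac. The parietal endoderm secretes a thick basement membrane of laminin and type IV collagen, and the visceral endoderm takes up and digests maternal proteins through cubilin, megalin and lysosomal proteases.

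The 8 libraries held from 12119763 to 16228426 counts in genes, and the 4 ESC libraries covered that whole range. Levels are given as CPM, counts scaled to a common library size after TMM adjustment for composition. All 8 of the ESC markers (Pou5f1, Sox2, Nanog, Zfp42, Dppa5a, Tdgf1, Utf1 and Esrrb) were at 68.8 CPM or more in each of the 4 ESC libraries, with a summed level of 5794 and 5876 CPM in the controls and 4442 and 4532 CPM in the knockouts. Of 12 fibroblast markers none passed 9.75 CPM in any ESC library and Twist2 was at 0 in all, with sums of 25.1 and 25.4 CPM in controls and 35.1 and 30.4 CPM in knockouts. The 14 adult liver markers summed to between 59.2 and 90.4 CPM, most of it from Ass1, and Cyp3a11 was at 0. The 10 blood and endothelium markers summed to between 145.5 and 179.6 CPM, most of it from Pecam1, and Hbb-bt was at 0. In whole-culture RNA a larger number of cells of 1 type and more RNA per cell cannot be told apart, which holds for every gene group below.

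Zfp462 RNA was lower in both knockout libraries and was not absent. It stood at 183 and 197 CPM in the controls and at 104 and 107 CPM in the knockouts, so the groups did not overlap (log2 difference -0.85 ± 0.10, estimate ± SE, adjusted p = 0.000366). In the EB libraries it stood at 153.5 and 130.3 CPM in controls and at 102.0 and 102.5 CPM in knockouts. The gene lies at chr4:54945048-55083563 on the plus strand in mm10. Counts summed over its exons do not show whether the RNA that remained encodes the protein.

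The comparison asked which genes change when Zfp462 is lost in undifferentiated cells. By edgeR's quasi-likelihood test 2483 of 17125 genes (14.5%) were called at an adjusted p under 0.05. Knockout ESCs had 1421 of them higher (8.30% of the genes tested) and 1062 lower (6.20%). Changes of at least 2-fold were found in 786 higher genes (4.59%) and 297 lower genes (1.73%). The rises were larger than the falls, with a median log2 change of 1.16 over the higher genes and -0.71 over the lower genes, and 314 genes rose by 2 or more on the log2 scale while 58 fell by as much. The direction of the calls went with the level in the controls. Of genes under 1 CPM there 206 were higher and 11 lower, while of genes over 100 CPM 116 were higher and 323 lower, so that 94.9% and 26.4% of the called genes were higher. A gene that is low in the controls can pass the filter on low counts through the knockout libraries, where it is then higher, so these shares are no test of direction. Both knockout values lay above both control values in 25.1% of the genes tested and below both in 27.5%. The counts depended on the libraries in the fit. Without control replicate 1 they were 541 higher and 318 lower, without control replicate 2 they were 485 and 271, without knockout replicate 1 they were 1948 and 2781, and without knockout replicate 2 they were 1734 and 1861. In 417 higher and 236 lower genes the call held without each of the 4 ESC libraries in turn.

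The 2 knockout libraries differed from each other more than the 2 controls did, and part of that difference followed GC content. Over the 11311 genes that averaged 5 CPM or more in ESCs, the log2 difference between replicates had an SD of 0.404 in the knockouts and 0.187 in the controls, and 264 genes differed by over 2-fold between the knockouts against 15 between the controls. Relative to the control mean, the median of knockout replicate 2 went from 0.11 in the lowest of 10 classes of GC content to -0.50 in the highest. Knockout replicate 1 went the other way, from -0.18 to 0.15. After correction of every library for its GC trend, 23.2% of the genes tested were called, 1878 higher and 2094 lower, so that 47.3% of the called genes were higher, against 57.2% without the correction. The corrected calls held 1419 of the 1421 higher and 1050 of the 1062 lower genes.

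**Figure D1:**
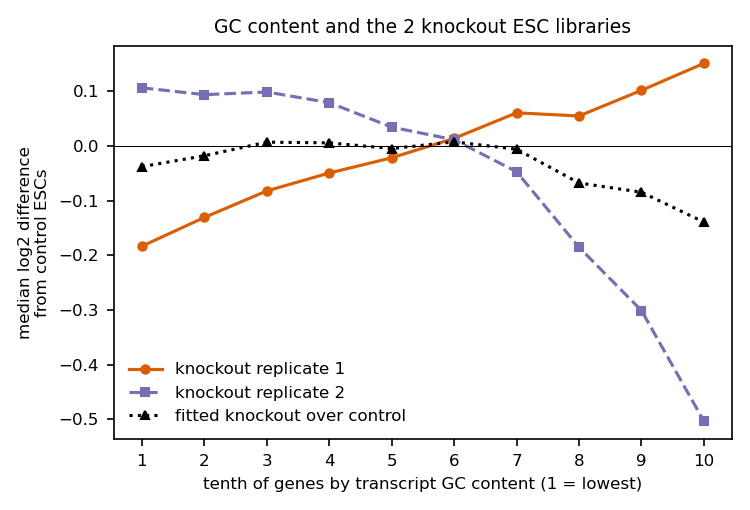
Median log2 difference from control ESCs (vertical axis) in 10 equal classes of genes by GC content of their transcripts (horizontal axis), for knockout replicate 1 (circles), knockout replicate 2 (squares) and the fitted knockout effect (triangles). The knockout replicates trend in opposite directions, from -0.18 to 0.15 and from 0.11 to -0.50, and the fitted effect stays between -0.14 and 0.01.

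Genes of the primitive endoderm and its derivatives rose together in the knockout cells. In 3 lists, of regulators, of parietal endoderm and basement membrane genes, and of visceral endoderm uptake and carrier genes, 37 of 47 members tested rose, 0 fell and 10 did not pass. That is 78.7% higher, beside 8.30% of all genes tested, and the median log2 change was 1.85, beside -0.03 for all genes. The lists were chosen with earlier results of these data known. The shares here and in the lists below therefore describe the members and are no independent test. Both knockout values lay above both controls in 41 of the 47 genes, beside 25.1% of all genes tested. Between 31 and 38 members rose when 1 ESC library was left out.

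Of the 10 regulators, 9 rose and only Foxa1, between 0.873 and 2.04 CPM, did not pass. Gata6, a GATA factor that starts the primitive endoderm programme, stood at 15.4 and 20.3 CPM in the controls and at 80.5 and 54.4 CPM in the knockouts. It rose by 1.91 ± 0.20 on the log2 scale (adjusted p = 0.000164). Gata4, its partner in the same programme, went from 36.5 and 38.6 CPM to 166 and 105 CPM (1.85 ± 0.18, adjusted p = 0.000108). In both GATA genes knockout replicate 1 was the higher of the 2 knockouts, and the groups did not overlap. Sox17, an SRY-box factor of all endoderm, went from 9.93 and 11.9 CPM to 61.6 and 35.8 CPM (2.15 ± 0.23, adjusted p = 0.000213). Sox7, a related factor of the parietal endoderm, went from 7.57 and 9.46 CPM to 48.2 and 39.2 CPM (2.35 ± 0.18, adjusted p = 1.94e-05). The growth factor receptor gene Pdgfra, a surface marker of the primitive endoderm, had close replicates, at 23.3 and 24.4 CPM and 110.4 and 120.2 CPM (2.27 ± 0.11, adjusted p = 2.36e-06). Factors of later visceral endoderm and liver changed by less, and Foxa2 rose by 1.55. Hnf4a went from 14.3 and 13.1 CPM to 24.1 and 17.0 CPM (0.58 ± 0.17, adjusted p = 0.0487), the smallest change of the 9, and was not called without control replicate 1 (adjusted p = 0.187), control replicate 2 (0.334) or knockout replicate 1 (0.154).

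Of 20 genes of the parietal endoderm and the basement membrane 16 rose, 0 fell and 4 did not pass. Together they summed to 5846 and 6034 CPM in the controls and to 19884 and 16057 CPM in the knockouts. Lama1 and Lamb1 encode the alpha and beta chains of laminin-111. Lama1 stood at 614 and 634 CPM in controls and 2436 and 2219.9 CPM in knockouts (1.90 ± 0.08, adjusted p = 7.92e-07), and Lamb1 at 459 and 450.0 CPM and 1667 and 1633 CPM (1.86 ± 0.08, adjusted p = 7.92e-07). The gamma chain gene Lamc1 rose by less, by 1.23 ± 0.07. Sparc, a collagen-binding glycoprotein secreted in bulk by parietal endoderm, went from 836 and 847 CPM to 3368 and 3163 CPM (1.96 ± 0.08, adjusted p = 7.92e-07). The type IV collagen chains Col4a1 (1.94 ± 0.17) and Col4a2 (1.89 ± 0.20) rose as well, but their knockout replicates stood apart, at 4549 and 2807 CPM for Col4a1. Genes for the enzymes and chaperone that process collagen rose with them. These were Serpinh1, the collagen chaperone HSP47 (2.06 ± 0.13), and the prolyl hydroxylase subunits P4ha1 (1.58 ± 0.10) and P4ha2 (1.77 ± 0.09). Srgn, a secretory granule proteoglycan, went from 67.8 and 67.2 CPM to 293 and 317 CPM (2.17 ± 0.10, adjusted p = 9.74e-07). The largest changes in the list were in Plat, tissue plasminogen activator (5.29 and 4.24 CPM to 33.3 and 36.6 CPM, 2.88 ± 0.19), and Thbd, thrombomodulin (2.81 ± 0.25). The members that did not pass were 3 basement membrane genes, Nid1 (0.25 ± 0.09), Nid2 (-0.04 ± 0.16) and Hspg2 (0.27 ± 0.19), and the receptor gene Fgfr2 (0.22 ± 0.19). Nidogen and perlecan, the products of the first 3, link the laminin and collagen networks.

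Genes for uptake by the visceral endoderm rose together, and not all of its secreted carriers did. In this list 12 of 17 genes rose, 0 fell and 5 did not pass. Cubn encodes cubilin, a receptor for vitamin B12 and albumin, and went from 202 and 215 CPM to 952 and 1141 CPM (2.33 ± 0.10, adjusted p = 7.92e-07). Its co-receptor genes Lrp2, for megalin (299.9 and 313 CPM to 1069 and 1275 CPM, 1.94 ± 0.10), and Amn, for amnionless (1.95 ± 0.31), rose with it, Amn less firmly (adjusted p = 0.0564 without control replicate 2). Dab2, the adaptor that brings these receptors into clathrin pits, went from 190.1 and 193 CPM to 804 and 831 CPM (2.09 ± 0.08, adjusted p = 7.92e-07). In all 4 genes both knockout values lay far above both controls. Stra6, the membrane receptor for retinol-binding protein, had the largest change of the list and went from 2.85 and 2.70 CPM to 24.8 and 20.96 CPM (3.04 ± 0.23, adjusted p = 1.94e-05). Among the carriers, Ttr, the thyroxine carrier transthyretin, went from 3.18 and 4.24 CPM to 12.5 and 14.4 CPM (1.84 ± 0.26), and Apob (1.26 ± 0.17) and Apom (2.21 ± 0.28), which encode apolipoproteins, rose. Apoe, another apolipoprotein gene, did not pass (-0.22 ± 0.15, adjusted p = 0.369), and Afp, the alpha-fetoprotein gene, stayed below 1 CPM in all 4 libraries.

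**Figure D2:**
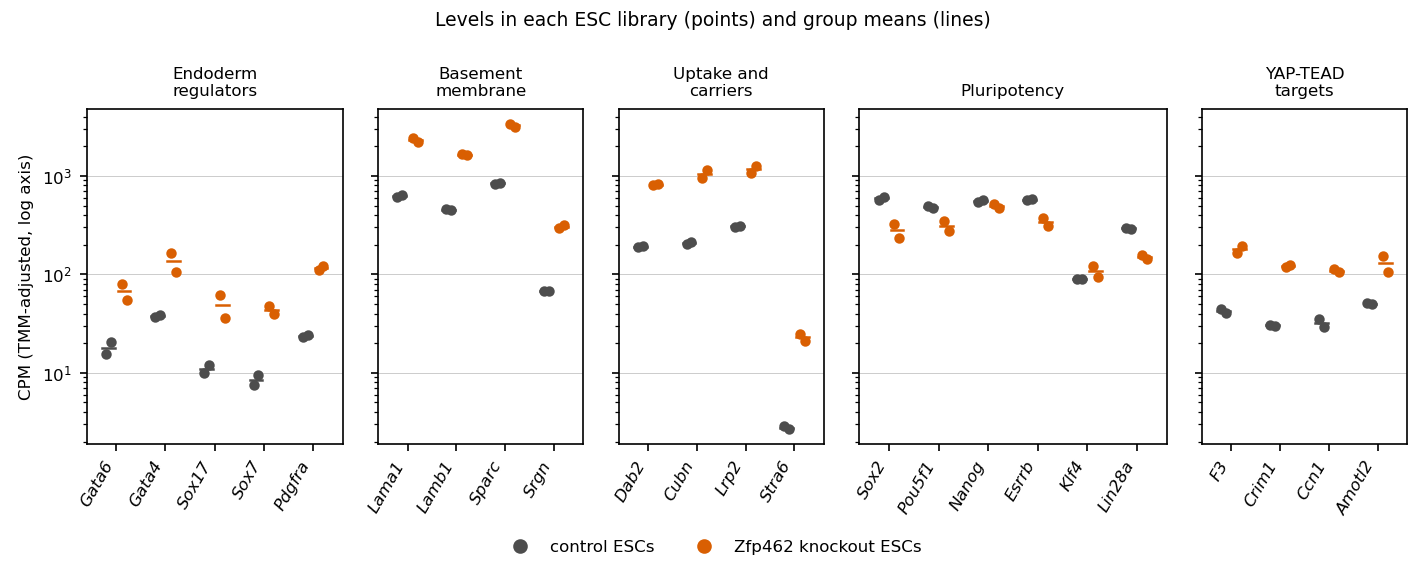
Level of 23 genes in CPM on a log axis, with 1 point for each library and a line at the group mean, for control ESCs (grey) and Zfp462 knockout ESCs (orange). The endoderm and YAP-TEAD target genes lie higher in both knockouts with no overlap, Sox2, Pou5f1, Esrrb and Lin28a lie lower, and Nanog and Klf4 did not pass the test.

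Part of the lysosomal genes rose as well. Of 28 in the list, 14 rose, 0 fell and 14 did not pass, with a median log2 change of 0.40. The count was 9 without control replicate 1. The list summed to 3030 and 3016 CPM in controls and 5029 and 4921 CPM in knockouts. The largest rises were in proteases of the endosome and lysosome. Ctsh, cathepsin H, went from 37.2 and 37.5 CPM to 119 and 131 CPM (1.74 ± 0.10, adjusted p = 4.96e-06), and Lgmn, the asparagine-specific protease legumain, from 135 and 144 CPM to 450.0 and 466 CPM (1.71 ± 0.09, adjusted p = 3.56e-06). Ctsl, cathepsin L, rose by 1.56 ± 0.08 and Ctsc, cathepsin C, by 1.56 ± 0.10. The 2 knockout values of each of these proteases lay close to one another and far from the controls. The structural membrane protein gene Lamp1 rose by less (0.49 ± 0.07), and the cholesterol carrier Npc2 did not pass (0.17 ± 0.09).

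Genes of the 2-cell-like state rose too. This state is a rare and passing condition of cultured ESCs in which genes of the 2-cell embryo are transcribed. In 2 lists, of single-copy genes and of multicopy families, 26 of 33 members tested rose, 0 fell and 7 did not pass. That is 78.8% higher, beside 8.30% of all genes tested, and the median log2 change was 1.90. Members low in the controls can pass the filter through the knockout libraries, so these values are no test of direction. With 1 ESC library left out, the medians were 2.08 to 2.20 in the single-copy list and 1.57 to 2.16 in the multicopy list. A further 13 members of the multicopy list had too few counts to be tested. The single-copy list of 7 genes summed to 16.7 and 16.8 CPM in controls and 63.8 and 69.7 CPM in knockouts. Zfp352, a retrotransposed zinc finger gene, went from 0.570 and 1.29 CPM to 6.34 and 10.3 CPM (3.10 ± 0.47, adjusted p = 0.00150), and Tmem92, a membrane protein gene, from 7.65 and 7.06 CPM to 32.7 and 32.5 CPM (2.15 ± 0.18, adjusted p = 4.54e-05). Sp110, a nuclear body gene, rose by 2.39 ± 0.35 and Arg2, mitochondrial arginase, by 2.31 ± 0.35. Duxf3, which encodes the DUX factor that opens this programme, stood at 1.38 and 0.737 CPM in controls and 2.33 and 1.46 CPM in knockouts and did not pass (0.86 ± 0.55, adjusted p = 0.358).

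The multicopy families hold near-identical genes between which the counting could divide reads, so the values of single copies are uncertain where their sequences are shared. For each of the 26 tested members, the share of 50-base stretches of its transcripts that also occur in transcripts of another gene was computed from GENCODE M21. The median was 41.7%, and it was under 50% in 18 members, of which 13 rose. Pramel6, a leucine-rich repeat gene that shares 0% of its stretches, went from 5.86 and 5.16 CPM to 57.8 and 81.8 CPM (3.67 ± 0.23, adjusted p = 8.53e-06). Its neighbour in the family, Pramel7, shares 1.4% and rose by 2.35 ± 0.29. Usp17lb, a deubiquitinase gene that shares 21.4%, went from 6.03 and 6.33 CPM to 67.7 and 90.5 CPM (3.67 ± 0.17, adjusted p = 1.67e-06). The Zscan4 genes, which encode telomere-associated zinc finger proteins, shared from 49.6% in Zscan4d to 90.1% in Zscan4b, and these 2 rose by 2.08 and 1.66.

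How alike 2 Zscan4 copies are also shows in the 250 bases before their annotated start, printed from RefSeq (GRCm38.p6), 5′ to 3′ on the gene's strand. The capitals mark the longest run the 2 windows share, which is 55 bases.
Zscan4c (chr7:11005495-11005744, plus strand): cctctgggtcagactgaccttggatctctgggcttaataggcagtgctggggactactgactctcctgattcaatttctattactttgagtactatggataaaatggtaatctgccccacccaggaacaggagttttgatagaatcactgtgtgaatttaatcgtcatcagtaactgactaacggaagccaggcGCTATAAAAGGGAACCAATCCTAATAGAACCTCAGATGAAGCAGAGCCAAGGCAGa
Zscan4d (chr7:11166149-11166398, minus strand): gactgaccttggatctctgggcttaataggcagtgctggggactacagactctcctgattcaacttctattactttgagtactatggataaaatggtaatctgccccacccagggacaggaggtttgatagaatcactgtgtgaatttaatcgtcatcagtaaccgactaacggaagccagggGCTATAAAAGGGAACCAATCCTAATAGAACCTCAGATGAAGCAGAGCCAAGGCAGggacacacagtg
In these windows the shared run begins 56 bases before the start of Zscan4c and 67 bases before that of Zscan4d. Zscan4c stood at 25.1 and 32.4 CPM in controls and 76.6 and 95.6 CPM in knockouts, and Zscan4d at 36.2 and 33.2 CPM and 120.1 and 174 CPM. In both genes knockout replicate 2 was the highest library.

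Targets of YAP and TEAD, the transcriptional arm of the Hippo pathway that responds to cell shape and attachment, rose in part in the knockout ESCs. Of 17 genes 9 rose (52.9%, beside 8.30% of all genes), 0 fell and 8 did not pass. The median log2 change was 0.85, and from 0.71 to 1.12 with 1 ESC library left out. F3, tissue factor, went from 44.4 and 40.1 CPM to 165 and 196 CPM (2.10 ± 0.12, adjusted p = 4.96e-06). Crim1, a transmembrane BMP-binding protein gene, went from 30.4 and 30.2 CPM to 119 and 124 CPM (2.01 ± 0.15, adjusted p = 1.68e-05), and Ccn1, a secreted matrix protein gene, from 35.3 and 29.4 CPM to 113 and 105 CPM (1.75 ± 0.16, adjusted p = 7.61e-05). In these genes the knockout values lay close together and well above the controls. Amotl2, an angiomotin that binds YAP, had knockout values further apart, at 154 and 106 CPM against 50.7 and 50.2 CPM in the controls (1.36 ± 0.15, adjusted p = 0.000267). Ccn2 rose by 1.46 ± 0.19 and Ankrd1, a nuclear ankyrin repeat gene, by 1.90 ± 0.26. The coactivator genes themselves, Yap1 (0.20 ± 0.08) and Wwtr1 (0.21 ± 0.11), did not pass.

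The TEAD factors bind a short motif that contains the letters GGAATG, which reads CATTCC on the other strand. RefSeq windows of 250 bases before the start were found for 7 of the 9 YAP-TEAD targets that rose, and 4 of their 8 windows hold the motif on either strand, which occurs in 12.6% of all 32851 such windows. These 4 windows are printed 5′ to 3′ on the gene's strand (GRCm38.p6), with the motif in capitals, because the values of these genes are given above.
Amotl2 (chr9:102717554-102717803, plus strand): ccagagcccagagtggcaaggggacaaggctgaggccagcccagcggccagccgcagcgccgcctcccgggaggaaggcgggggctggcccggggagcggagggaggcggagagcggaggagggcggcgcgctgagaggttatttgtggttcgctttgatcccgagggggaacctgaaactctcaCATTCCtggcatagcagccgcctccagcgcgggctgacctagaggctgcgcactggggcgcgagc
Ankrd1 (chr19:36119845-36120094, minus strand): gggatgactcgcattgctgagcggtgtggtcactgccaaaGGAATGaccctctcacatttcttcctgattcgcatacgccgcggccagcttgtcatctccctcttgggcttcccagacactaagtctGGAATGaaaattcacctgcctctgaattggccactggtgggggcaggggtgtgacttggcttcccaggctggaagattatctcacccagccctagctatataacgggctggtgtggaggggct
Ccn1 (chr3:145649986-145650235, minus strand): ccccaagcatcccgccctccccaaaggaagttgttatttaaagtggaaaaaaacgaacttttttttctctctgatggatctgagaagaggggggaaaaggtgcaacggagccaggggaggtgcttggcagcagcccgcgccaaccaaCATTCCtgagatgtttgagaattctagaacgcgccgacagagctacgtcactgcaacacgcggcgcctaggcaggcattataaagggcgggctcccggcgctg
Crim1 (chr17:78199998-78200247, plus strand): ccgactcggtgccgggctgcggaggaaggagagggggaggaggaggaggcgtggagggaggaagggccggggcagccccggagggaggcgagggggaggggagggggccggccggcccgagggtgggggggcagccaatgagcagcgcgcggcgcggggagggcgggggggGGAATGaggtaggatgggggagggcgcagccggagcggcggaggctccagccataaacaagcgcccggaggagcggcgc
The motif begins 65 bases before the start in Amotl2, 103 in Ccn1 and 79 in Crim1, and Ankrd1 holds it at 210 and at 123 bases. For the endoderm lists the letters GATAA, the core bound by GATA factors (TTATC on the other strand), were searched in the same way. They occur in 7 of the 34 windows of the 22 risen genes that have one, or 20.6%, and in 22.6% of all windows. These matches describe the letters in the windows and were not tested for binding. The YAP-TEAD genes were listed as targets beforehand, and windows of members that did not rise were not counted apart. The shares therefore do not show whether the motif goes with the rise.

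Retinoid genes changed in both directions. Of 14 tested, 4 rose (28.6%, beside 8.30% of all genes), 2 fell (14.3%, beside 6.20%) and 8 did not pass. Beside Stra6, Rdh10, which oxidises retinol to retinal, went from 9.04 and 8.78 CPM to 22.2 and 17.0 CPM (1.14 ± 0.16, adjusted p = 0.00111), and Cyp26a1, which degrades retinoic acid, from 12.9 and 11.7 CPM to 35.9 and 24.2 CPM (1.30 ± 0.18, adjusted p = 0.000799). The receptor gene Rara stood lower, at 30.8 and 16.7 CPM against 49.3 and 59.8 CPM (-1.20 ± 0.22, adjusted p = 0.00501), a call lost without control replicate 2 (adjusted p = 0.0964). Aldh1a2, which makes retinoic acid, did not pass (0.20 ± 0.44). Without control replicate 2 no gene of the list was lower.

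In the BMP list of 20 genes, 5 rose (25.0%, beside 8.30% of all genes), 0 fell and 15 did not pass. Nog, the extracellular BMP antagonist noggin, went from 2.93 and 3.01 CPM to 18.0 and 12.8 CPM (2.37 ± 0.32, adjusted p = 0.000738). The ligand gene Bmp2 stood at 2.44 and 2.40 CPM in controls and 7.80 and 7.50 CPM in knockouts (1.66 ± 0.27, adjusted p = 0.00249), a call lost without control replicate 2 (adjusted p = 0.0546). The direct response gene Id1 did not pass (-0.07 ± 0.14). The list had 2 higher genes without control replicate 1 and 1 without control replicate 2. In the WNT list of 18 genes, 2 rose (11.1%, beside 8.30% of all genes), 3 fell (16.7%, beside 6.20%) and 13 did not pass. Dkk1, a secreted WNT antagonist, went from 5.05 and 3.75 CPM to 24.1 and 25.0 CPM (2.49 ± 0.23, adjusted p = 7.61e-05), and Tcf7l2, a nuclear effector, rose by 1.21 ± 0.20. The effector Lef1 fell by 1.55 and the receptor Fzd7 fell by 0.81, while the general target Axin2 did not pass (-0.16 ± 0.17). Without knockout replicate 1, 9 genes of this list were lower.

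In the NODAL list of 15 genes, 3 fell (20%, beside 6.20% of all genes), 2 rose (13.3%, beside 8.30%) and 10 did not pass, which gives no direction for the list. Lefty1, a secreted NODAL inhibitor that NODAL itself induces, went from 89.8 and 89.4 CPM to 46.1 and 31.1 CPM (-1.22 ± 0.15, adjusted p = 0.000486), and Skil, a repressor of SMAD signalling, from 292 and 308 CPM to 128 and 171 CPM (-1.0 ± 0.12, adjusted p = 0.000431). Fst, follistatin, which binds activin, went up from 15.2 and 14.6 CPM to 46.5 and 53.1 CPM (1.74 ± 0.15, adjusted p = 6.70e-05). Without knockout replicate 1, 6 genes of this list were lower. In the FGF-ERK list of 17 genes, 8 fell (47.1%, beside 6.20% of all genes), 1 rose (5.88%, beside 8.30%) and 8 did not pass. The median was -0.40. Il17rd, a membrane inhibitor of FGF receptors, went from 66.8 and 65.4 CPM to 36.3 and 36.7 CPM (-0.86 ± 0.10, adjusted p = 0.000310), Spry4, an inhibitor of RAS activation, fell by 0.78, and Etv5, an ETS factor, fell by 0.58. The lower genes of this list were 4 without control replicate 1 and 3 without control replicate 2. In the LIF-STAT3 list of 13 genes, 1 fell (7.69%, beside 6.20% of all genes), 2 rose (15.4%, beside 8.30%) and 10 did not pass. Socs2, a feedback inhibitor of cytokine receptors, was the gene that fell (67.3 and 60.9 CPM to 28.1 and 35.2 CPM, -1.02 ± 0.13). Of that list 7 genes were lower without knockout replicate 1, 2 without knockout replicate 2, and 0 were higher without either control.

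Pluripotency genes fell in part and by less than the endoderm genes rose. The core list of 14 had 6 lower genes (42.9%, beside 6.20% of all genes), 0 higher and 8 that did not pass. Its median log2 change was -0.37. Sox2, the SRY-box partner of OCT4, went from 568 and 617 CPM to 326 and 237 CPM (-1.08 ± 0.13, adjusted p = 0.000466), and Pou5f1, which encodes OCT4, from 490.2 and 474 CPM to 346 and 279 CPM (-0.63 ± 0.10, adjusted p = 0.00214). In both genes knockout replicate 2 was the lower, and the groups did not overlap. Lin28a, which blocks maturation of let-7 microRNAs, went from 299 and 287 CPM to 156 and 144 CPM (-0.97 ± 0.08, adjusted p = 5.73e-05). Nanog, the homeobox factor that opposes GATA6, stood at 543 and 575 CPM in controls and 516 and 473 CPM in knockouts. Both of its knockout values lay below both controls, and the difference did not pass (-0.18 ± 0.10, adjusted p = 0.286). Of the core list 4 genes were lower without control replicate 1, 3 without control replicate 2, and 10 without knockout replicate 2.

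Of 16 naive pluripotency genes 7 fell (43.8%, beside 6.20% of all genes), 2 rose (12.5%, beside 8.30%) and 7 did not pass. The median was -0.36. Dppa3, a protector of maternal DNA methylation, went from 32.2 and 30.9 CPM to 9.55 and 13.8 CPM (-1.43 ± 0.19, adjusted p = 0.000761), and the orphan receptor gene Nr0b1 from 75.4 and 72.4 CPM to 40.3 and 28.0 CPM (-1.11 ± 0.15, adjusted p = 0.000858). Esrrb stood at 573 and 578 CPM and 377 and 308 CPM (-0.75 ± 0.11, adjusted p = 0.00139), and Nr5a2, a related orphan receptor gene, at 115 and 116 CPM and 61.8 and 75.6 CPM (-0.75 ± 0.11). ESRRB and NR5A2 are known to sustain Pou5f1 transcription in naive cells, and their part in its fall here was not tested. Klf4 did not pass (89.4 and 89.0 CPM and 121 and 93.0 CPM, 0.26 ± 0.13, adjusted p = 0.238), though it was called higher with the GC trend removed (0.37, adjusted p = 0.00710). The genes that rose were Tbx3, a T-box factor (0.62 ± 0.14, adjusted p = 0.0133, and 0.132 without control replicate 1), and Fbxo15, an F-box protein gene (0.57 ± 0.12, adjusted p = 0.00916, and 0.101 without control replicate 1). Leaving out either control replicate gave 4 lower naive genes and 0 higher.

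In the next stage of the epiblast, called formative and then primed, more list members fell than rose. Of 16, 8 fell, 3 rose and 5 did not pass, with a median of -0.49. Zic2, a zinc finger factor of the epiblast, went from 10.99 and 11.5 CPM to 4.74 and 2.69 CPM (-1.60 ± 0.21, adjusted p = 0.000624), and the growth factor gene Fgf15 from 19.3 and 19.7 CPM to 6.93 and 9.32 CPM (-1.26 ± 0.17). Car4, a membrane carbonic anhydrase, went up from 17.6 and 21.01 CPM to 61.9 and 56.0 CPM (1.61 ± 0.12, adjusted p = 1.94e-05). Fgf5, the usual marker of this stage, stood at 1.55 and 1.84 CPM and 3.06 and 2.69 CPM (0.75 ± 0.22, adjusted p = 0.0426). Its call was lost without control replicate 1 (adjusted p = 0.228), control replicate 2 (0.147) or knockout replicate 1 (0.125), and by DESeq2. Of the list 4 genes were lower without control replicate 1 and 5 without control replicate 2, and 1 was higher without control replicate 1.

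**Figure D3:**
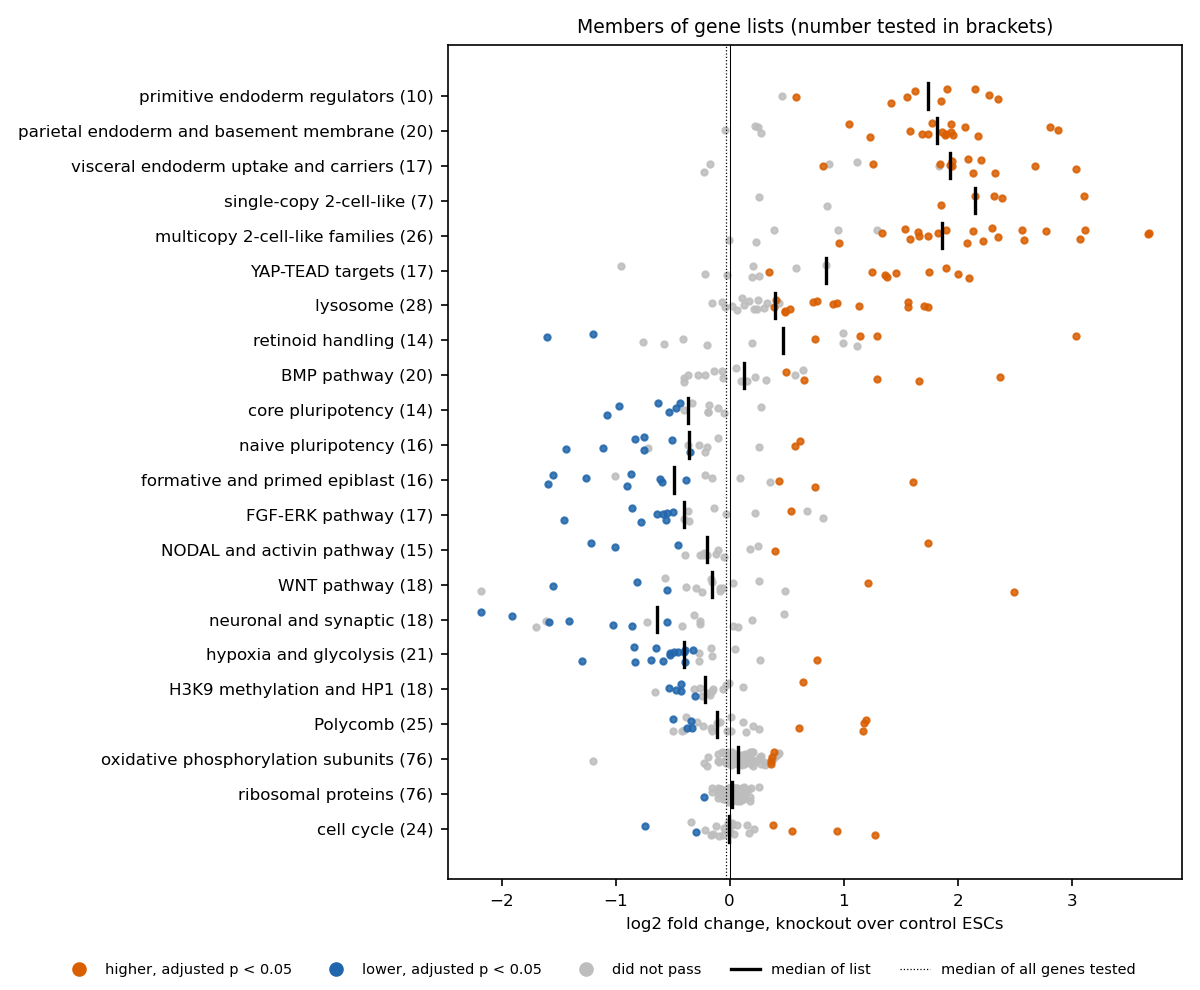
Log2 fold change of each tested member (horizontal axis) for 22 gene lists (rows, with the number tested), where orange points rose, blue points fell and grey points did not pass, the black bar is the list's median and the dotted line the median of all genes tested (-0.03). The endoderm and 2-cell-like lists have medians from 1.74 to 2.15, and the ribosomal, oxidative phosphorylation and cell cycle lists lie within 0.08 of 0.

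Part of the neuronal genes fell. Of 18 neuronal and synaptic genes 7 fell (38.9%, beside 6.20% of all genes), 0 rose and 11 did not pass. The median was -0.64. Calb2, the calcium buffer calretinin, went from 8.88 and 10.3 CPM to 2.48 and 1.75 CPM (-2.18 ± 0.28, adjusted p = 0.000616), Gap43, a growth cone protein gene, from 5.29 and 5.71 CPM to 1.39 and 1.53 CPM (-1.91 ± 0.31), and Dlg4, the synaptic scaffold PSD-95, from 16.5 and 18.5 CPM to 4.59 and 7.06 CPM (-1.59 ± 0.24). With either control left out, 3 genes of the list were lower. Of 9 neuroectoderm genes 2 fell (22.2%, beside 6.20% of all genes) and 7 did not pass. The one whose call held without each ESC library was Sox11, a factor of neural progenitors (22.6 and 25.3 CPM to 10.7 and 6.33 CPM, -1.49 ± 0.20, adjusted p = 0.000754). The other, Pax6, lost its call without any 1 of the 4 ESC libraries. Of 8 tested genes of the primitive streak and anterior endoderm only Hhex rose (0.85 ± 0.25, adjusted p = 0.0466), a call lost without control replicate 1 (adjusted p = 0.102), control replicate 2 (0.365) or knockout replicate 1 (0.117).

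Epithelial genes and keratins changed in both directions. Of 19 genes of epithelial identity and its loss, 6 fell (31.6%, beside 6.20% of all genes), 2 rose (10.5%, beside 8.30%) and 11 did not pass. Cdh1, E-cadherin, went from 519 and 547 CPM to 355 and 329.5 CPM (-0.64 ± 0.08, adjusted p = 0.000359), and Esrp1, an epithelial splicing factor, from 56.7 and 58.1 CPM to 31.6 and 33.4 CPM (-0.82 ± 0.10). The tight junction gene Cldn6 went up from 55.0 and 59.7 CPM to 109.5 and 96.2 CPM (0.84 ± 0.10, adjusted p = 0.000481). The lower genes were 4 without control replicate 1. Among 15 trophoblast factors and simple keratins 4 rose (26.7%, beside 8.30% of all genes), 2 fell (13.3%, beside 6.20%) and 9 did not pass. The intermediate filament partners Krt8 (47.2 and 58.7 CPM to 126 and 128 CPM, 1.25 ± 0.12) and Krt18 (40.5 and 47.4 CPM to 99.2 and 101 CPM, 1.18 ± 0.11) rose, and the gene of the trophoblast and germ cell factor AP-2 gamma, Tfap2c, went down from 57.1 and 60.1 CPM to 15.9 and 12.96 CPM (-2.02 ± 0.15, adjusted p = 1.94e-05). This list had 2 higher genes and 1 lower without control replicate 1 or 2. Of 30 collagens 5 rose (16.7%), 5 fell (16.7%) and 20 did not pass. Of 19 integrins 3 rose (15.8%), 1 fell (5.26%) and 15 did not pass. Of all genes tested 8.30% rose and 6.20% fell. Col18a1, whose product lies at epithelial basement membranes, went from 376 and 372 CPM to 181 and 107 CPM (-1.38 ± 0.18), opposite to the type IV chains. With either control left out, 2 collagens were higher and 0 integrins were called, and without knockout replicate 1 there were 5 lower integrins.

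Glycolytic and hypoxia-responsive genes fell by small amounts. The median of the 21 genes was -0.40. Of these, 14 fell (66.7%, beside 6.20% of all genes), 1 rose (4.76%, beside 8.30%) and 6 did not pass. With either control left out, 7 were lower. Egln3, a prolyl hydroxylase that marks HIF for degradation, went from 65.1 and 61.7 CPM to 28.4 and 23.4 CPM (-1.29 ± 0.14, adjusted p = 0.000206), and Pdk1, which blocks entry of pyruvate into mitochondria, from 291 and 280.1 CPM to 170.2 and 185 CPM (-0.69 ± 0.09, adjusted p = 0.000661). The enzyme gene Eno1, enolase, went from 1802 and 1835 CPM to 1210.2 and 1117 CPM (-0.64 ± 0.07), and Ldha, lactate dehydrogenase, from 1527 and 1522 CPM to 1125 and 1189 CPM (-0.40 ± 0.06). The gene that rose was Vegfa, the vascular growth factor (0.77 ± 0.20, adjusted p = 0.0261, and 0.210 without control replicate 1). Among genes of respiration few were called. Of 76 nuclear subunits of oxidative phosphorylation 4 rose (5.26%, beside 8.30% of all genes) and 0 fell (median 0.08). Of 13 mitochondrially encoded genes 0 were called. No oxidative phosphorylation subunit was called without either control, and 11 were higher without either knockout.

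The counts of genes of growth and housekeeping that passed differed between lists. Of 76 ribosomal protein genes 1 fell and 0 rose, with a median of 0.02, although 8 fell without knockout replicate 2 and 11 rose without knockout replicate 1. Of 23 cholesterol synthesis genes 1 rose (4.35%, beside 8.30% of all genes) and 1 fell (4.35%, beside 6.20%). Insig1, a brake on sterol synthesis, was the gene that rose (0.74 ± 0.09). Of 20 genes of amino acid supply and the integrated stress response 2 fell (10.0%, beside 6.20% of all genes) and 0 rose. Slc7a3, an arginine transporter, was among the genes that fell (121 and 112 CPM to 66.0 and 80.4 CPM, -0.67 ± 0.11). Of 18 p53 targets 3 rose (16.7%, beside 8.30% of all genes) and 0 fell. Of 24 cell cycle genes 4 rose (16.7%, beside 8.30% of all genes), 2 fell (8.33%, beside 6.20%) and 18 did not pass. The D-type cyclins moved apart. Ccnd2 went from 22.6 and 24.3 CPM to 60.2 and 53.2 CPM (1.27 ± 0.14, adjusted p = 0.000244) and Ccnd1 from 93.6 and 90.4 CPM to 58.0 and 52.2 CPM (-0.74 ± 0.10, adjusted p = 0.000680). The proliferation marker Mki67 did not pass (0.22 ± 0.08). Of 16 immediate early genes 4 rose (25.0%, beside 8.30% of all genes) and 3 fell (18.8%, beside 6.20%). Of 31 replication-dependent histone genes 2 rose (6.45%) and 0 fell. Of 22 germline genes 2 rose (9.09%) and 0 fell. The shares of these last 2 lists were near the 8.30% of all genes. There were 0 higher genes without control replicate 1 in the p53, histone and germline lists, 1 in the cell cycle list and 1 in the immediate early list. Without knockout replicate 1 the lower genes were 7 in the stress response list, 7 in the immediate early list and 6 in the cholesterol list.

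Among chromatin genes Ehmt1, Ehmt2 and Wiz did not pass the test. Ehmt1 had a log2 difference of 0.12 ± 0.10 and Ehmt2 of -0.00 ± 0.17, and Wiz, another zinc finger partner of these enzymes, of -0.65 ± 0.23 (adjusted p = 0.0899). Of the 18 genes of H3K9 methylation and HP1, 5 fell (27.8%, beside 6.20% of all genes), 1 rose (5.56%, beside 8.30%) and 12 did not pass. Cbx1, which encodes HP1 beta, a reader of H3K9 methylation, went from 351 and 390.4 CPM to 255 and 279.6 CPM (-0.47 ± 0.10, adjusted p = 0.00907, and 0.138 without control replicate 2). Kdm1a, a histone demethylase, went from 343 and 346 CPM to 251 and 226 CPM (-0.53 ± 0.08, adjusted p = 0.00182). Without control replicate 1, 2 genes of this list were lower, without control replicate 2, 1 was, and without knockout replicate 1 or 2, 9 and 10 were. Of 25 Polycomb genes 4 rose, 4 fell and 17 did not pass. Among the lower genes was Jarid2, a cofactor of PRC2 (597 and 641 CPM to 435 and 445 CPM, -0.49 ± 0.07, adjusted p = 0.00134). Leaving out control replicate 1 gave 1 higher and 1 lower Polycomb gene, and leaving out knockout replicate 1 gave 10 lower. Of 9 DNA methylation genes 1 rose and 1 fell, both calls were lost without control replicate 1, and 5 were lower without knockout replicate 1. Imprinted genes, which are expressed from 1 parental copy, changed in both directions, with 6 of 25 higher, 5 lower and 14 that did not pass. H19, a maternally expressed long RNA, went from 157 and 168 CPM to 555 and 344 CPM (1.47 ± 0.19), Peg3, a paternally expressed zinc finger gene, from 196 and 196 CPM to 454 and 513 CPM (1.30 ± 0.10, adjusted p = 1.78e-05), and Snrpn, a paternally expressed splicing gene, from 85.1 and 85.3 CPM down to 51.0 and 55.8 CPM (-0.67 ± 0.09). Imprinted genes called without control replicate 1 were 3 higher and 2 lower.

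In the interferon and antigen presentation list of 24 genes, 3 rose (12.5%, beside 8.30% of all genes), 6 fell (25.0%, beside 6.20%) and 15 did not pass. B2m, the light chain of MHC class I, went from 23.7 and 24.4 CPM to 57.4 and 58.4 CPM (1.27 ± 0.14, adjusted p = 0.000254), and H2-D1, a heavy chain, from 21.8 and 23.5 CPM to 59.5 and 40.0 CPM (1.13 ± 0.17). The interferon-induced membrane protein genes went down, Ifitm1 from 106 and 111 CPM to 39.6 and 39.2 CPM (-1.47 ± 0.10, adjusted p = 1.48e-05) and Ifitm3 from 74.5 and 80.2 CPM to 40.1 and 36.5 CPM (-1.02 ± 0.10). Without control replicate 1, 2 genes of this list were lower. The fibroblast, adult liver and blood and endothelium marker lists had 2 higher of 6 tested (33.3%), 0 of 9 and 1 of 6 (16.7%). No gene of these lists was lower, and of all genes tested 8.30% were higher. The fibroblast count was 0 without either control, without knockout replicate 1 or without knockout EB replicate 1, and the blood and endothelium count was 0 without either control or without knockout replicate 2.

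Outside the lists, the largest changes were in genes of mixed function. Ptk6, a tyrosine kinase of epithelia, had the largest rise among genes with at least 5 CPM, from 1.47 and 0.676 CPM to 20.3 and 11.3 CPM (3.92 ± 0.41, adjusted p = 0.000178). Nostrin, an endocytic adaptor, went from 5.37 and 4.61 CPM to 39.2 and 38.9 CPM (2.97 ± 0.20) and Timd2, a ferritin receptor gene, from 3.01 and 3.62 CPM to 28.9 and 29.3 CPM (3.12 ± 0.18). Sema6d, a guidance cue, rose by 3.04 ± 0.30 and the aminopeptidase gene Enpep by 3.04 ± 0.32. The largest falls were at low levels. Dtna, a dystrobrevin of the cytoskeleton, went from 5.13 and 6.88 CPM to 0.583 and 0.801 CPM (-3.11 ± 0.33, adjusted p = 0.000197), Mobp, a myelin protein gene, from 8.06 and 10.2 CPM to 1.39 and 0.801 CPM (-3.05 ± 0.35), and Map7d3, a microtubule-binding protein gene, from 12.1 and 14.1 CPM to 2.48 and 2.04 CPM (-2.53 ± 0.22). Foxp1, a forkhead factor with an ESC-specific splice form, went from 49.0 and 57.7 CPM to 13.2 and 11.9 CPM (-2.09 ± 0.13, adjusted p = 7.34e-06). In all of these genes the 2 groups did not overlap, which the rule for naming them required.

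Some of the changed genes were neighbours. Along the chromosomes, 14 runs of at least 4 adjacent tested genes were called in 1 direction, 12 higher and 2 lower. The longest was the Zscan4 cluster at chr7:10794242-11614112 (mm10), where 12 adjacent genes and pseudogenes rose by 1.34 to 2.96. The Tmem92 cluster at chr11:94756976-94846092 held 6 and the Sp110 and Sp140 cluster at chr1:85105946-85645037 held 5. Members of such clusters can share sequence, and their values are then not independent. In the Zscan4 run the call of Gm6909 was lost whichever of the 4 ESC libraries was left out (adjusted p from 0.0647 to 0.250), and those of Gm18204 and Gm45551 were lost without 3 of them. In the Tmem92 run Gm11545 was lost without each of the 4 and Gm11544 without 3, and in the Sp110 and Sp140 run Gm16026 without 3. Outside multicopy clusters, Hhex, Exoc6, Cyp26a1 and Myof rose side by side at chr19:37434810-38043577, by 0.47 to 1.30. The calls of Exoc6 and Hhex were lost without either control (adjusted p = 0.231 and 0.102 without control replicate 1). The 2 runs that fell were Clybl, Zic5, 2610035F20Rik and Zic2 at chr14:122181704-122479852 and Ifitm2, Ifitm1, Ifitm3 and B4galnt4 at chr7:140954837-141072400. Of these 8 genes Zic2, Ifitm1 and Ifitm3 kept their call without each ESC library. The chance of such runs was not tested. By chromosome, the median log2 change of the autosomes lay between -0.08 (chromosome 17) and 0.04 (chromosome 13).

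The knockout effect in ESCs was then set against that in day 3 EBs, which shares no library with it but shares the fitted spread. In EBs 814 genes (4.75%) were higher and 350 (2.04%) lower. Of the ESC calls, 540 higher genes were also higher in EBs, which is 38.0% of the ESC list and 66.3% of the EB list, and 194 lower genes were also lower in EBs, which is 18.3% and 55.4%. The difference between the effects passed its own test in 237 genes (1.38%), 110 with the ESC effect above the EB effect and 127 below. That count rested on single libraries. Knockout EB replicate 1 stood apart from the other EB libraries in its adult liver markers, which summed to 2162 CPM there and to between 79.4 and 100.6 CPM in the other 3, and the part of these transcripts in the differences was not tested. Without it the count was 20, without either control ESC library it was 0 (1566 and 1391 genes at an unadjusted p below 0.05 by the same test), and without knockout ESC replicate 1 or 2 it was 2040 and 981. DESeq2 called 392.

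Endoderm genes had a larger log2 change in ESCs than in EBs in part of the list. In the 3 lists the median log2 change was 1.85 in ESCs and 0.93 in EBs, and 33 of 47 rose in EBs and 0 fell. The difference was called in 17 genes with the larger log2 rise in ESCs and in 1, Nid1, with the larger log2 rise in EBs. These changes are ratios, and control levels differed between the stages in both directions. Dab2 averaged 192 CPM in control ESCs and 539 CPM in control EBs, and Lama1 averaged 624 and 312 CPM. In knockout ESCs and EBs Dab2 averaged 817 and 1144 CPM, and Lama1 2328 and 697 CPM. Dab2 rose by 2.09 ± 0.08 in ESCs and 1.09 ± 0.08 in EBs, a difference of 1.01 ± 0.11 (adjusted p = 0.00389) that was also called without knockout EB replicate 1 (adjusted p = 0.0335). Lamb1 rose by 1.86 and 0.63 (difference 1.23 ± 0.11, adjusted p = 0.00245), and this too was called without that library (0.0132). Stra6 rose by 3.04 in ESCs and had 0.05 ± 0.24 in EBs, which did not pass (difference 2.99 ± 0.33, adjusted p = 0.00418; 0.0335 without that library). The 2-cell-like lists had no called difference among 33 genes, with medians of 1.90 in ESCs and 2.56 in EBs.

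The medians of the naive pluripotency list were of opposite sign, -0.36 in ESCs and 0.47 in EBs, where 7 of 16 genes rose and 0 fell. The difference was called in 6 genes, and of these Esrrb, Nr5a2 and Dppa3 did not pass in EBs themselves (adjusted p = 0.225, 0.134 and 0.204). The effects that follow are ratios to control levels that differed between the stages. Control ESCs and control EBs averaged 575 and 165 CPM of Esrrb, 19.3 and 114 CPM of Car4, and 195 and 1324.5 CPM of Dnmt3b. Knockout ESCs and EBs averaged 343 and 196 CPM of Esrrb, 59.0 and 87.6 CPM of Car4, and 263 and 784 CPM of Dnmt3b. Esrrb had an effect of -0.75 ± 0.11 in ESCs and 0.25 ± 0.11 in EBs (difference -1.0 ± 0.16, adjusted p = 0.0164), and without knockout EB replicate 1 the difference was not called (adjusted p = 0.0923). Car4 rose by 1.61 ± 0.12 in ESCs and had -0.38 ± 0.11 in EBs (difference 1.98 ± 0.16, adjusted p = 0.00245, and 0.0106 without that library). Dnmt3b, a de novo DNA methyltransferase, had 0.43 ± 0.08 and -0.76 ± 0.08 (difference 1.19 ± 0.12, adjusted p = 0.00360, and 0.0257 without it). Its call in ESCs alone was lost without control replicate 1 (adjusted p = 0.115). Of these differences none was called without control ESC replicate 1 or without control ESC replicate 2.

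**Figure D4:**
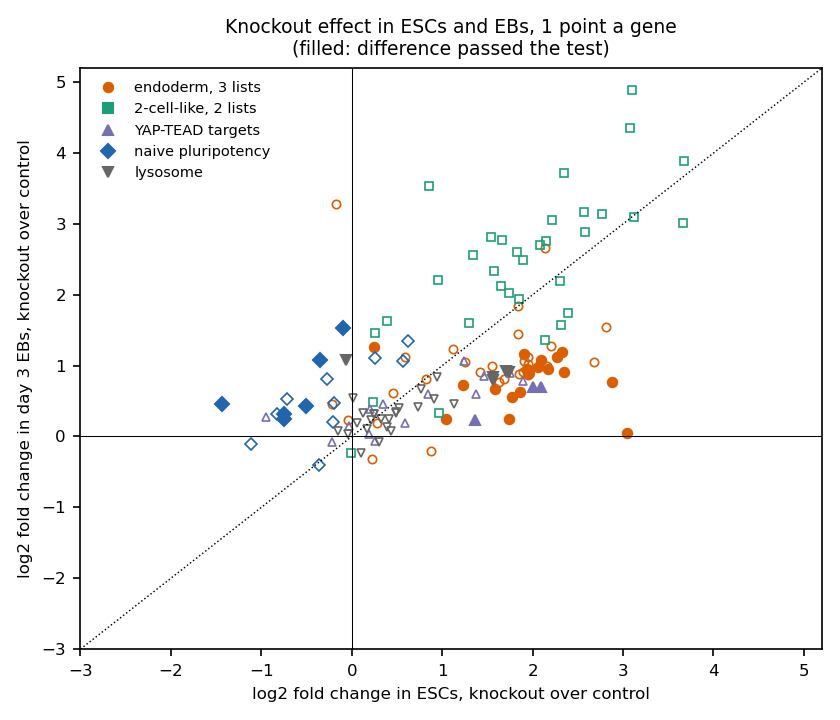
Log2 fold change of knockout over control in ESCs (horizontal axis) and in day 3 EBs (vertical axis) for the members of 8 gene lists in 5 groups, with filled symbols where the difference between the effects passed its test and a dotted line where the effects are equal. Endoderm genes lie mostly below the line (38 of 47), 2-cell-like genes mostly above it (8 of 33 below), and the 6 naive pluripotency genes with called differences lie below 0 in ESCs and above 0 in EBs, although Tcl1 did not pass in ESCs and 3 of them did not pass in EBs.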

How the data were processed

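RNA from 8 samples was sequenced as poly(A)-selected libraries. The authors deposited 1 table of read counts per gene, and per the submitters' processing notes HISAT2, featureCounts, DESeq2 and mm10 were used, while versions, the strand setting and the handling of reads that map to several places are not stated. The deposited counts, of 55401 genes (23376 at 0 in all libraries), were used as they are. Genes that passed edgeR's filter on low counts (17125) were fitted by edgeR 4.0.16 in R 4.3.3 with TMM scaling and 1 mean for each of the 4 groups, over all 8 libraries, and the quasi-likelihood test was adjusted by Benjamini-Hochberg over all genes tested. The common biological coefficient of variation was 0.132. Called means an adjusted p below 0.05. Log2 changes are edgeR's fitted values, log2 CPM of single libraries used a prior count of 2, and standard errors (SE) come from the test statistic. With 2 libraries in each group, an exact permutation test of a single gene could not reach that threshold, so none was used.

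GC content was taken from GENCODE M21 transcripts, to which 55141 gene IDs matched, and the trend of each library was fitted with a spline of 5 degrees of freedom. Promoter windows came from RefSeq (GRCm38.p6). Alternatives were DESeq2 1.42.0, 2 other scalings, 2 other filters, the 4 ESC libraries alone, a replicate term, GC correction and leaving out each library. The script was tested on simulated counts.

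Genes are named by a rule: Zfp462, the 12 largest called changes in each direction (the group with more RNA averaging 5 CPM or above, no overlap, at most 2 of 1 multicopy family), the 4 called genes of lowest adjusted p in every list, and 8 lineage genes. Genes with only a Gm number, a Rik or clone name, or a shared symbol were left out of the largest changes. Other members, such as those that did not pass, and neighbours in runs were chosen after their values were seen. The comparison, the lists and the rule were chosen with earlier results of these data known. Sequences are printed where a motif or a shared run was found. Near-identical copies and overlapping genes have uncertain counts. The values of 1 list member are not reported here.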

Additional observations from a re-analysis of the deposited data

Results flagged for a closer look

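In 41 named genes the knockout effect in ESCs differed from that in EBs by a test of the difference itself (edgeR's quasi-likelihood test, adjusted p below 0.05). The values in this section are the log2 change in ESCs minus that in EBs, positive in 27 genes and negative in 14. All 41 kept their sign without knockout EB replicate 1, the library with adult liver transcripts, and 10 kept the call. None was called without control ESC replicate 1 or without control ESC replicate 2. With the GC trend removed, and by DESeq2, 41 were called. With the replicate block 37 were, without Tet2 (adjusted p = 0.076), Pdk1 (0.0714), Suv39h1 (0.0619) and Amotl2 (0.0513), and with median-of-ratios scaling 39 were, without Tet2 (0.054) and Pdk1 (0.0552).

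Genes of the endoderm lists had the larger log2 rise in ESCs, over control levels that differed between the stages, as given above. These were Stra6 (2.99), Fst (1.49), Sox7 (1.44), Lamb1 (1.23), Srgn (1.22), Pdgfra (1.15), Cubn (1.14), Sparc (1.06), Dab2 (1.01), Lrp2 (0.98) and Lama1 (0.74). The targets of YAP and TEAD with such a difference were F3 (1.39), Crim1 (1.31) and Amotl2 (1.13), and the lysosomal proteases were Ctsh (0.83), Lgmn (0.78), Ctsc (0.76) and Ctsl (0.73). Control levels differed here too. F3 averaged 42.2 CPM in control ESCs and 18.7 CPM in control EBs, and Ctsc averaged 40.6 and 131 CPM. In knockout ESCs and EBs Ctsc averaged 120 and 229 CPM. The keratins Krt8 (0.89) and Krt18 (0.76), the endocytic adaptor Nostrin (1.49) and the ferritin receptor gene Timd2 (1.79) and the imprinted gene Peg3 (0.81) also had a more positive effect in ESCs.

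Among epiblast genes Car4 (1.98), Fgf5 (1.70) and Dnmt3b (1.19) had positive differences. All stood higher in control EBs than in control ESCs, Fgf5 at a mean of 61.2 CPM against 1.695 CPM. The ESC calls of Fgf5 and Dnmt3b depended on the libraries in the fit, as given above. The H3K9 methyltransferase gene Suv39h1 had a difference of 0.84. Differences were negative in the naive pluripotency genes Dppa3 (-1.89), Nr5a2 (-1.07) and Esrrb (-1.0), whose EB effects did not pass on their own. The largest negative values were in the low-level genes Mobp (-3.42) and Dtna (-2.39). Negative differences were also found in the transcription factor genes Tfap2c (-1.85) and Foxp1 (-1.49), the NODAL inhibitors Lefty1 (-1.21) and Lefty2 (-0.58), the FGF inhibitor gene Il17rd (-0.92), the interferon-induced gene Ifitm1 (-0.98), the DNA demethylase gene Tet2 (-0.88) and the hypoxia-responsive genes Bnip3 (-0.81) and Pdk1 (-0.61). The 10 genes called without knockout EB replicate 1 were Tfap2c, Foxp1, Dab2, Sparc, Cubn, Dnmt3b, Srgn, Lamb1, Car4 and Stra6.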

How the results depend on the processing

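The counts of 1421 higher and 1062 lower genes stayed within 1.5 times under median-of-ratios scaling, no composition factors, no filter, a mean of at least 1 CPM, DESeq2, the replicate block and leaving out knockout EB replicate 1. A minimum fold change of 2 left 786 higher and 297 lower genes. With the 4 ESC libraries alone 407 genes were lower. Removing the GC trend gave 2094 lower genes, and with the replicate block as well 2053. Removing also the library level, an alternative added after seeing the data, gave 2496. The first form was chosen when both counts had been seen. Leaving out 1 ESC library gave from 485 to 1948 higher and from 271 to 2781 lower genes. The 237 genes whose effect differed between ESCs and EBs became 704 with no filter, 392 by DESeq2, 20 without knockout EB replicate 1, 710 with the GC trend removed, 717 with the library level removed too, 666 with the block and GC trend, and from 0 to 2040 when 1 ESC library was left out. The cause of these changes was not tested. Zfp462 kept its direction and call in all alternatives. Of 151 other named genes 0 changed sign, and of the 149 called 49 lost the call without at least 1 ESC library, while 117 kept it in all other alternatives. Of 42 list medians 13 changed sign under some alternative. Among the 20 over 0.3 in size 1 did, that of the neuroectoderm list (-0.25 with a mean of at least 1 CPM). The labels give the groups shared replicate numbers, but same-numbered control and knockout ESC libraries did not deviate together (r = -0.04 over 11328 genes). The EB pair had r = -0.24 and no pair of groups had r over 0.04. The labels name no shared origin, so the numbers were not used as pairs and none were crossed. With the replicate block 1294 genes were higher, 987 lower and 173 differed from EBs. Precision is limited by 2 libraries in each group.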

Other observations

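Among RNAs that encode no protein, 45 of 486 long intergenic RNAs (9.26%, beside 8.30% of all genes) were higher in knockout ESCs and 10 lower, and of 1179 processed pseudogenes 52 (4.41%) were higher and 8 lower, by the same test. Antisense RNAs had 12 higher (3.33%) and 7 lower of 360, and processed transcripts 8 (4.17%) and 8 of 192. Among 99 unprocessed pseudogenes 16 were higher (16.2%) and 0 lower, a class that includes members of the multicopy clusters. Protein-coding genes had 1265 higher and 1025 lower of 14212. Called genes of low level were mostly higher in general, 94.9% of those under 1 CPM in controls and 78.1% of those from 1 to 5 CPM. These shares are no test of direction, and the part of level in the calls of RNAs that encode no protein was not tested. Of the genes that rose by at least 2-fold, 183 had under 1 CPM in both controls, and of those that fell by as much, 57 had under 1 CPM in both knockouts. The median exonic length in the deposited table was 3731 bases for higher genes, 5295 for lower genes and 3780 for all genes tested. Reads of pseudogenes can belong to their parent genes, and the part of this in the counts was not tested.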
